A study of Mus musculus with 10 samples.

Results

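The subunits of mitochondrial complex I, the NADH dehydrogenase of the respiratory chain, were described in hearts of mice with and without the atypical protein kinase C isoform PKCz, infused with angiotensin II (AngII) or its solvent. The members are the genes whose platform symbol starts with Ndufa, Ndufb, Ndufc, Ndufs or Ndufv, without the Ndufaf assembly factors. Each gene was read from 1 probe set. Of those annotated with a single symbol, it was the one brightest on average over the 10 arrays. This gave 36 members of 18193 genes measured in the same way, 16 with a single such probe set and 20 with several.

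All hearts were taken at an age of 32 weeks from males of the SV129 strain that were littermates. Wild-type animals are called WT and PKCz -/- animals KO. Minipumps under the skin delivered AngII over 14 days at a daily dose of 432 µg per kg, or PBS. Of the 10 arrays, WT PBS holds numbers 3 and 5, WT AngII holds numbers 2, 3 and 4, KO PBS likewise holds numbers 2, 3 and 4, and KO AngII holds numbers 3 and 4, as in their titles. The titles of the control arrays say PBS where their source label says non-treated. No label ties an array to its own animal, so the spread behind each p-value is that between arrays and may be technical. The making of the PKCz -/- allele, and whether any cell type keeps PKCz, are not stated in the labels. Values are log2 expression values, on which a step of 1 is a doubling, and differences are given ± SE.

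Some facts of the whole series touch the results below. Prkcz, the targeted gene, read 5.70 to 5.87 on the 5 KO arrays and 6.23 to 6.45 on the 5 WT arrays on its brightest probe set. Whether this probe set reads the deleted stretch was not checked here. Polyadenylated bacterial control RNAs read 6.90 to 7.08 on 3 arrays and 12.86 to 13.33 on 7. The 3, KO PBS 4 with both arrays of KO AngII, are called the low spike-in batch. All WT arrays are in the high batch and both KO AngII arrays in the low one, so under AngII the genotype and this batch cannot be told apart except through KO PBS 4. Markers of heart muscle were present on every array, with Myh6 at 14.32 to 14.48 and Tnnt2 at 14.25 to 14.36. WT AngII 2 stood apart. Its 8 fibroblast and matrix markers lay on average 2.024 above their mean over the 10 arrays, against −0.695 to 0.490 on the other 9. Medians over the members are therefore also given without it, and values of single members where it moves them most.

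Complex I is the entry point of electrons into the respiratory chain. Its matrix arm oxidises NADH at a flavin and passes the electrons along iron-sulphur clusters to ubiquinone, and its membrane arm pumps protons. Core subunits that carry out this chemistry are conserved from bacteria. The many accessory subunits surround them and are needed for assembly and stability. The core subunits of the membrane arm are encoded in mitochondrial DNA, and all others in the nucleus. Heart muscle, which makes most of its ATP by oxidation, is among the tissues richest in this complex.

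By role, the members were 6 nuclear core subunits, 8 of 9 listed accessory subunits of the matrix arm, 8 of 9 A, C and S subunits of the membrane arm and all 11 B subunits of the membrane arm. A further 3 members have another or a second role, Ndufa4, Ndufa4l2 and Ndufab1. The mitochondrially encoded subunits were not analysed here. Ndufs6 and Ndufa11 have only probe sets shared with a close copy (Ndufs6b, Ndufa11b). The shared Ndufs6 probe set differed between AngII and PBS by −0.18 ± 0.13 in WT and −0.15 ± 0.13 in KO, and the brighter shared Ndufa11 probe set by 0.048 ± 0.085 and 0.028 ± 0.085.

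Most members gave strong signals. On every array 29 of the 36 read above 12 and 32 above 11, where the highest value of any probe set on an array was 14.54 to 14.68. Ndufb4, a B subunit, was the exception with a dim signal of 4.50 to 4.83. Its 2 other probe sets, shared with the copies Ndufb4b and Ndufb4c, read 12.45 to 12.82, so values of Ndufb4 rest on its dimmest probe set. Member values also varied little. The range over the 10 arrays had a median of 0.39 over the members and was below 1 for all 36, and over the 9 arrays without WT AngII 2 its median was 0.27 and all 36 stayed below 0.5. The SDs over the 10 arrays were largest for Ndufa4l2 (0.277), Ndufs4 (0.201) and Ndufb6 (0.196), against a median of 0.12.

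The array WT AngII 2 held the lowest value of the 10 arrays for 28 of the 36 members (77.8%). Among all 45037 probe sets tested this array was lowest for 23.1%, and among those at or above the median level for 17.4%. It was lowest for all 6 core subunits, all 8 accessory subunits of the matrix arm, 6 of the 8 A, C and S and 7 of the 11 B subunits of the membrane arm, and 1 of the 3 members with another role. For 34 members it lay below the mean of the other 9 arrays, and the median over the members of this distance was −0.28. Ndufb10, an accessory subunit of the membrane arm, read 12.18 there and 12.65 to 12.80 on the other 9 arrays. Ndufa5 of the matrix arm read 12.28 against 12.70 to 12.96, and Ndufs4, an accessory subunit that stabilises the NADH-oxidising end, 10.59 against 10.97 to 11.28. The gap below all other arrays was thus 0.47, 0.41 and 0.38 for these genes. The core subunits Ndufs7 and Ndufs3 were separated from the other arrays by 0.34 and 0.29. Ndufa4l2, a relative of Ndufa4 known to be induced by low oxygen, stood the other way, at 9.52 on WT AngII 2 and 8.61 to 9.11 elsewhere.

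**Figure D1:**
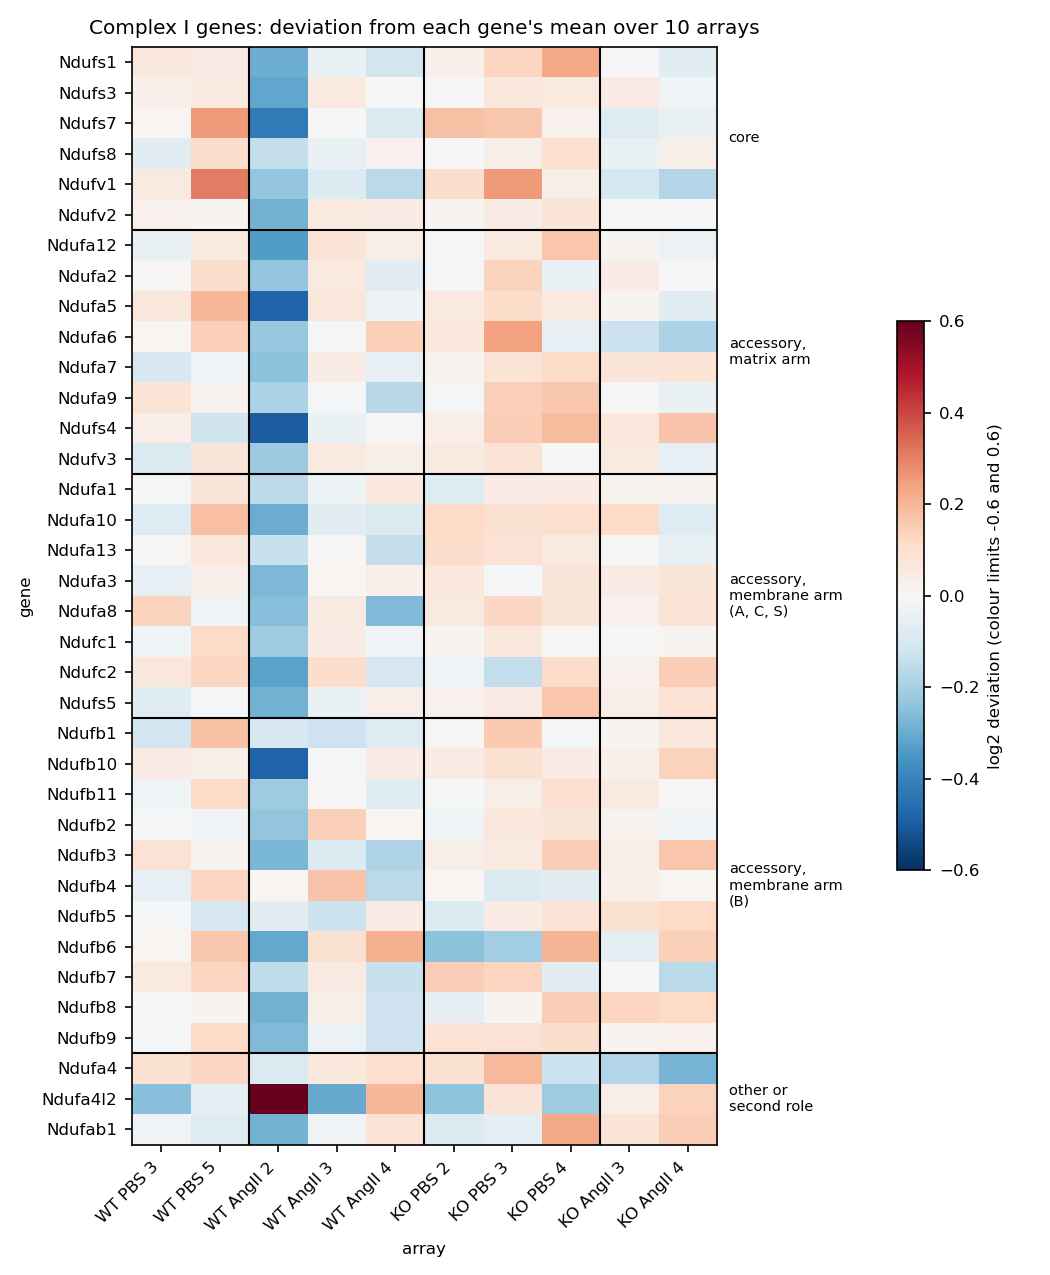
Each of the 36 members (rows, by role) on each of the 10 arrays (columns, by group), coloured by the log2 deviation from the gene's own mean over the arrays, with colour limits at −0.6 and 0.6. The column of WT AngII 2 is the lowest of the row for 28 members, and Ndufa4l2 is high there.

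The level of the members on an array, taken as the mean of their deviations from their own means, was −0.227 on WT AngII 2 and between −0.028 and 0.073 on the other 9 arrays. It was −0.003 and 0.071 in WT PBS, −0.227, 0.004 and −0.028 in WT AngII, 0.014, 0.073 and 0.066 in KO PBS, and 0.015 on both KO AngII arrays. Without WT AngII 2 the 2 WT groups overlapped, and KO AngII lay within the range of KO PBS. The pooled SD within groups was 0.078. For the 6 core subunits alone the level was 0.023 and 0.132 in WT PBS and −0.282, −0.008 and −0.048 in WT AngII. In KO it was 0.054, 0.117 and 0.086 under PBS and −0.031 and −0.043 under AngII. All 5 AngII arrays thus lay below all 5 PBS arrays in the core level. The gap was narrow, from −0.008 on WT AngII 3 to 0.023 on WT PBS 3. The level of all 36 members did not part in this way, with WT PBS 3 at −0.003 and both KO AngII arrays at 0.015. The 37 measured genes of complexes II to V, the rest of the respiratory chain and the ATP synthase, stood at −0.159 on WT AngII 2 and −0.060 to 0.079 elsewhere. Among them Atpif1, an inhibitor of the ATP synthase and not a subunit, read 11.67 on WT AngII 2 and 10.93 to 11.41 elsewhere. Cox7c rests on a dim probe set that read 4.44 to 4.73.

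Beside this stand the cell type markers on the same array. The 8 fibroblast and matrix markers ranged from −0.695 to −0.246 in WT PBS, from −0.249 to 2.024 in WT AngII, from −0.606 to −0.409 in KO PBS and from 0.205 to 0.490 in KO AngII. On WT AngII 2 the collagen gene Col1a1 read 12.80 against 8.21 to 9.99 elsewhere, and Postn, a matrix protein of activated fibroblasts, 13.55 against 8.72 to 11.21. The 6 macrophage markers were at 1.003 there and −0.360 to 0.188 on the other arrays, and the 4 smooth muscle markers at 1.031 and −0.760 to 0.321. Not every marker was raised. Myh11 at 8.95 lay below WT PBS 5 (9.04), and Acta2 at 12.30 was the lowest of the 5 WT arrays. The macrophage marker Cd163 at 7.11 lay within 6.40 to 7.93. On WT AngII 2 Cnn1 read 9.48 against 5.78 to 7.04 elsewhere, and Tagln 10.27 against 8.45 to 9.66. The 10 cardiomyocyte markers were at −0.078 there and −0.029 to 0.050 elsewhere. Not all of them were low, with Mybpc3 at 13.89 on WT AngII 2 against 13.40 to 13.70 elsewhere, and Tnnt2 at 14.34 within 14.25 to 14.36. The part of these markers in the complex I values was not tested. In whole heart tissue, fewer cells of a type and less RNA per cell cannot be told apart.

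**Figure D2:**
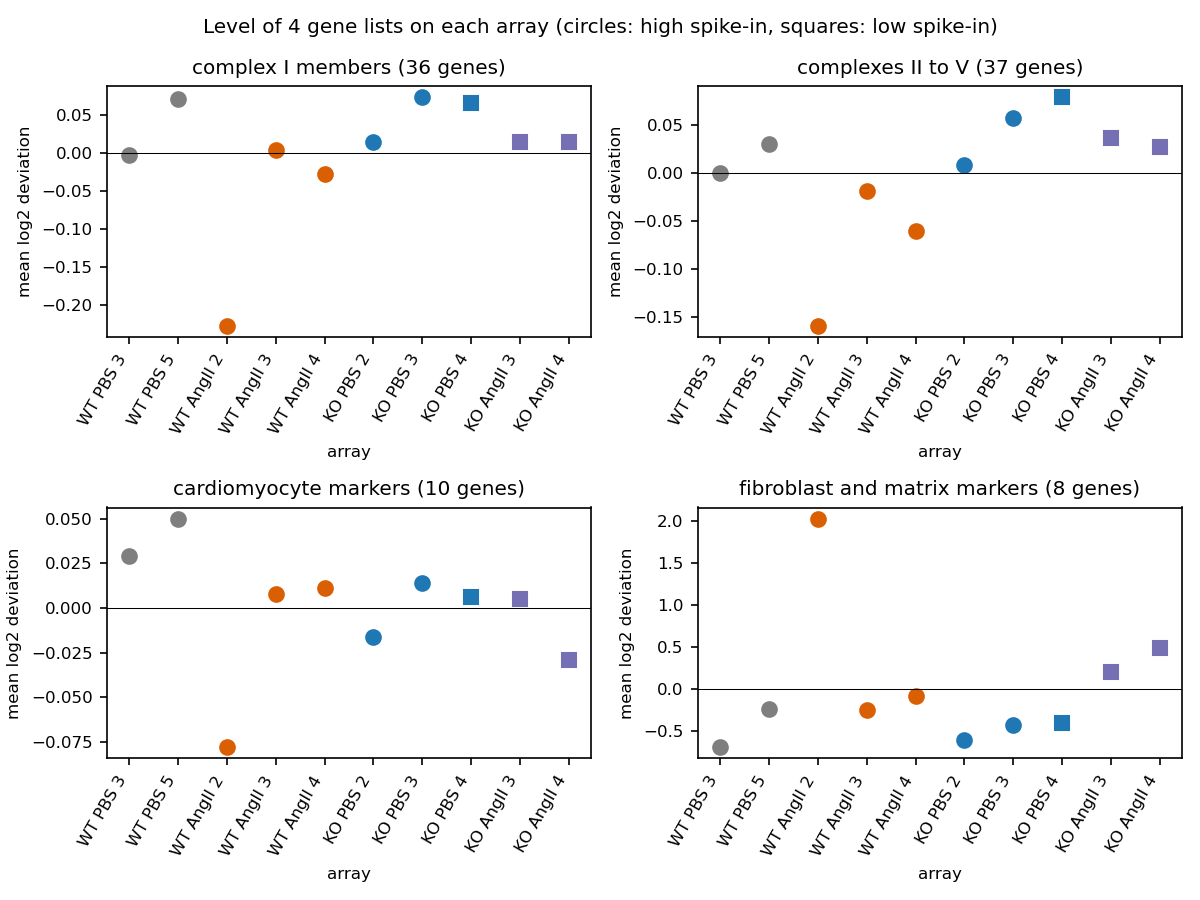
Mean log2 deviation of 4 gene lists on each array (x axis, arrays by group; circles are the high and squares the low spike-in batch), each panel on its own scale. WT AngII 2 is lowest for the complex I members (−0.227), complexes II to V (−0.159) and the cardiomyocyte markers (−0.078) and highest for the fibroblast and matrix markers (2.024).

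Because the members shared this low array, the stretch just before the gene start was searched for 4 sequence motifs of factors known to act on nuclear genes of respiration. These were NRF1 (GCGCA, any base, then GCGC), the ETS motif bound by GABPA (CCGGAAG), YY1 (AAGATGGC) and ESRRA (TCAAGGTCA), each on both strands. RefSeq promoters, 250 bases before to 50 after a start on assembly GRCm38.p6, were matched for 32 of the 36 members, 34 promoters in all. The NRF1 letters were in 6 of the 34 (17.6%) and in 4.6% of all 32851 promoters of this length. Those 6 belong to 5 genes, since the 2 overlapping promoters of Ndufa5 share a match. The YY1 letters were in 6 (17.6%, against 2.75%), each time starting 22 to 38 bases after the start, in Ndufa3, Ndufa9, Ndufb8, Ndufc1, Ndufs4 and Ndufs7. The ETS letters were in 4 (11.8%, against 8.86%) and the ESRRA letters in 0 (against 0.423%). In these 34 promoters no match of a motif overlapped a match of another. A match is a description of the letters, not of a bound site. The 100 bases before the start are shown for 3 members with the NRF1 letters, at different distances from the start. In Ndufa8 the match is on the opposite strand, so the letters appear as their reverse complement. Also shown are Ndufs3 with the ETS letters and Ndufv1, the member with the smallest unadjusted p for AngII, with none of the 4 motifs. All 5 genes lie on the minus strand, the sequences read 5′ to 3′ in the direction of transcription, and capitals mark the motif.
Ndufa5 chr6:24527691-24527790: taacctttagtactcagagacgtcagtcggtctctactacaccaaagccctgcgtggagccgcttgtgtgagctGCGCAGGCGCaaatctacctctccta
Ndufa8 chr2:36049339-36049438: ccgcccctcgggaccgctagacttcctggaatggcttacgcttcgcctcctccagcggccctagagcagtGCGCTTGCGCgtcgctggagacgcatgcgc
Ndufs5 chr4:123718187-123718286: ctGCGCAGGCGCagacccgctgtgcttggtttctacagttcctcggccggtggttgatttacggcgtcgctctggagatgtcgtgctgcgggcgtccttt
Ndufs3 chr2:90904722-90904821: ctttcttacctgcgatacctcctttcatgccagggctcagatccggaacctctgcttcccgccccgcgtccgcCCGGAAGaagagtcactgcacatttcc
Ndufv1 chr19:4012756-4012855: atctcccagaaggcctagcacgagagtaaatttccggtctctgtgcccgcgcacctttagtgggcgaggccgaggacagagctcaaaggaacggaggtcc

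Counted from the start, the first base of the NRF1 letters lies at −26 in Ndufa5, −30 in Ndufa8 and −98 in Ndufs5, and that of the ETS letters of Ndufs3 at −27. The difference between WT AngII 2 and the mean of the other 9 arrays was −0.53 for Ndufa5, −0.28 for Ndufa8, −0.31 for Ndufs5 and −0.34 for Ndufs3. It was −0.26 for Ndufv1, which holds none of the 4 motifs in the 300 bases. Other members without a match lay lower, such as Ndufb10 at −0.54 and Ndufa12 at −0.37. Of members with a match, Ndufb4 on its dim probe set lay at 0.01 and Ndufb7 at −0.17. A link between the motifs and this difference was not tested.

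The first comparison asked whether 14 days of AngII changed the members in WT hearts. Of the 36 members 34 lay lower under AngII, with a median difference of −0.13, where 48.4% of all probe sets lay lower and their median was 0.006. With limma 0 members were called at an adjusted p under 0.05, as were 0% of all probe sets. An unadjusted p under 0.05 was reached by 3 members, all lower (3.52% of all probe sets did so in that direction), and by 0 in the other direction (1.71%). Without WT AngII 2 the median was −0.030 and 24 of 36 lay lower, against 47.9% of all probe sets, and 1 member, Ndufv1, had an unadjusted p under 0.05 (11.2% of all probe sets). The median over the members thus moved with that single array from −0.030 to −0.13, by more than the pooled SD within groups of the members' level (0.078). The effect of AngII, where the 95% interval is read for each gene, was within a doubling or a halving for all 36 members and within 1.41-fold for 32.

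Among core subunits Ndufv1, the flavoprotein that takes the electrons from NADH, was lower under AngII in both genotypes. Ndufv1 read 13.28 and 13.53 in WT PBS and 12.99, 13.14 and 13.06 in WT AngII. In KO hearts it read 13.33, 13.48 and 13.26 under PBS and 13.12 and 13.05 under AngII. The AngII and PBS arrays did not overlap in either genotype, and all 5 AngII arrays lay below all 5 PBS arrays. The difference was −0.34 ± 0.10 in WT (1.26-fold lower, limma adjusted p = 0.93) and −0.27 ± 0.10 in KO (1.21-fold lower, limma adjusted p = 0.892). Without WT AngII 2 the WT difference was −0.30 ± 0.10 (adjusted p = 0.408), and with the spike-in batch as a block the KO difference was −0.17 ± 0.13 (adjusted p = 1). Within KO, the low-batch array KO PBS 4, at 13.26, lay above both KO AngII arrays of the same batch.

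A comparison of AngII with PBS averaged over the genotypes was added after the Ndufv1 values were seen. Ndufv1 differed by −0.30 ± 0.071 (limma adjusted p = 0.483). Its 2 other probe sets differed by −0.30 ± 0.075 and −0.22 ± 0.072 (limma adjusted p = 0.483 and 0.487), and on each of the 3 probe sets all 5 AngII arrays lay below all 5 PBS arrays. With the batch as a block the chosen probe set gave −0.25 ± 0.082, and without WT AngII 2 −0.29 ± 0.069 (adjusted p = 0.193). The averaged median over the 36 members was −0.071, with 31 lower (45.7% of all probe sets), 0 called (0% of all probe sets), 8 lower at an unadjusted p under 0.05 (6% of all probe sets) and 0 higher (3.63%). Besides Ndufv1 these were Ndufs1, Ndufs7, Ndufa9, Ndufa13, Ndufa4, Ndufb7 and Ndufb9, with differences from −0.24 to −0.12. The members share arrays and are not independent, so these counts are a description. Without WT AngII 2 the median was −0.025 with 22 lower (45.6% of all probe sets), and Ndufv1, Ndufs1, Ndufs7 and Ndufa4 kept an unadjusted p under 0.05, 4 members in all (17.4% of all probe sets).

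Ndufs7 and Ndufs1, which hold iron-sulphur clusters of the electron path, were the other members whose 5 AngII arrays all lay below the 5 PBS arrays, so that 3 of 36 members did so against 0.673% of all probe sets, and 0 lay above against 0.402%. Ndufs7 read 13.13 and 13.37 in WT PBS, 12.69, 13.12 and 13.03 in WT AngII, 13.29, 13.28 and 13.14 in KO PBS, and 13.04 and 13.07 in KO AngII. The gap between the treatments was narrow, from 13.12 to 13.13. The WT difference was −0.30 ± 0.13 (limma adjusted p = 0.93) and −0.17 ± 0.096 without WT AngII 2, and the KO difference −0.18 ± 0.13 (adjusted p = 0.893) and −0.081 ± 0.17 with the batch as a block. The other Ndufs7 probe set, with a mean of 12.59, overlapped between treatments, with WT AngII 4 at 12.65 and WT PBS 5 at 12.61. It gave −0.15 ± 0.11 in WT and −0.20 ± 0.11 in KO. Ndufs1 read 12.61 and 12.59 in WT PBS, 12.25, 12.50 and 12.43 in WT AngII, 12.57, 12.67 and 12.77 in KO PBS, and 12.54 and 12.48 in KO AngII. Its difference was −0.21 ± 0.10 in WT and −0.16 ± 0.10 in KO (limma adjusted p = 0.93 and 0.892). The WT value was −0.13 ± 0.092 without WT AngII 2 and the KO value −0.26 ± 0.13 with the block. Ndufv2, the iron-sulphur partner of Ndufv1, was less apart, with −0.087 ± 0.10 and −0.052 ± 0.10. Ndufs3, a structural core subunit of the matrix arm, gave −0.13 ± 0.11 and −0.027 ± 0.11, and Ndufs8, another iron-sulphur subunit, −0.078 ± 0.089 and −0.045 ± 0.089. Without WT AngII 2 the WT values were 0.025 ± 0.071 for Ndufv2, −0.020 ± 0.083 for Ndufs3 and −0.033 ± 0.086 for Ndufs8, and with the block the KO values were −0.083 ± 0.14, −0.044 ± 0.15 and −0.097 ± 0.12. All 6 measured core subunits lay lower under AngII in each genotype (median −0.17 in WT and −0.11 in KO), and without WT AngII 2 the WT median was −0.084 with Ndufv2 above 0.

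**Figure D3:**
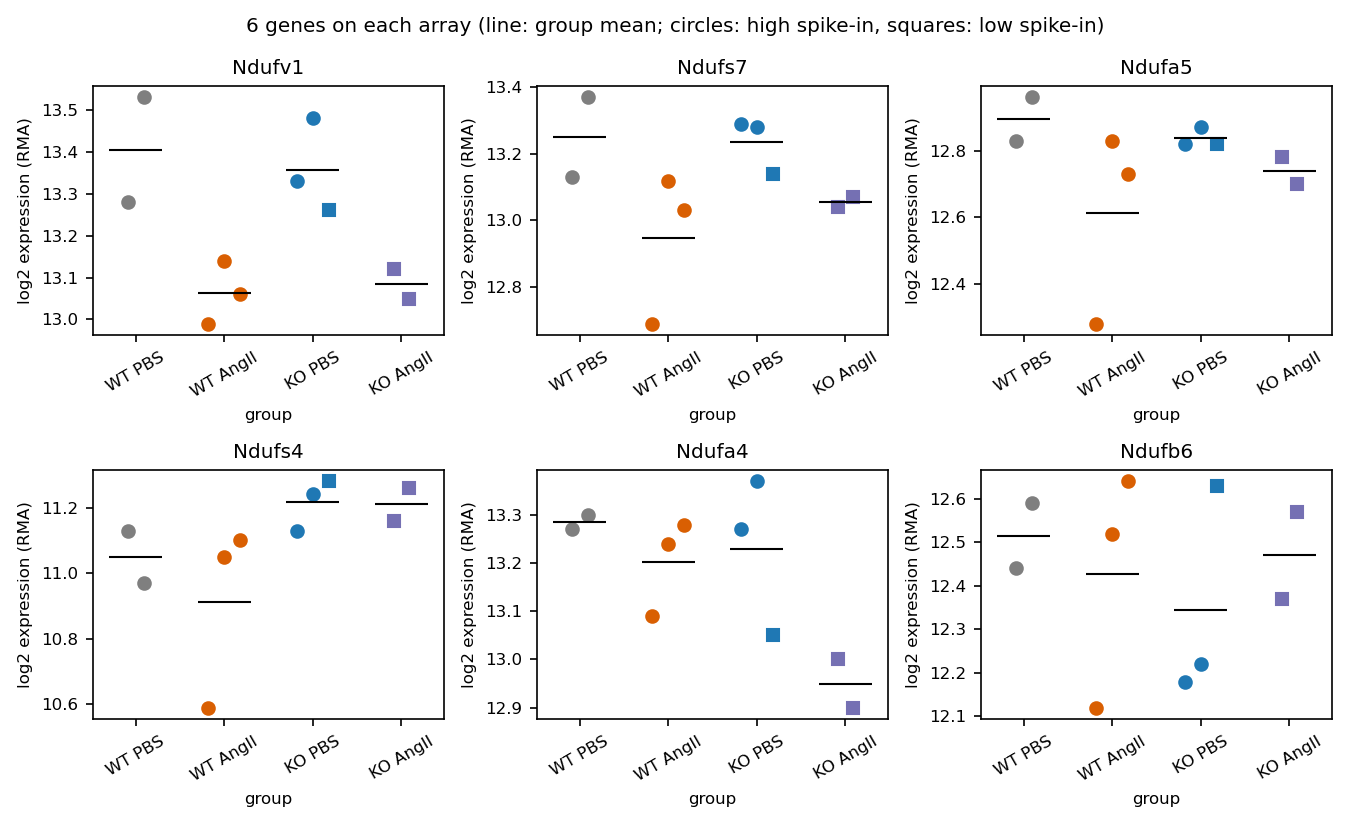
Log2 expression (y axis, each panel on its own scale) of Ndufv1, Ndufs7, Ndufa5, Ndufs4, Ndufa4 and Ndufb6 on each array by group, with circles for the high and squares for the low spike-in batch and a line at each group mean. Ndufv1 is lower on all 5 AngII arrays than on all 5 PBS arrays, Ndufa4 is lowest on the 3 squares, and WT AngII 2 is the lowest point of Ndufs7, Ndufa5, Ndufs4 and Ndufb6.

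Among the accessory subunits in WT, Ndufb9, a membrane-arm subunit that binds the acyl carrier protein, differed by −0.19 ± 0.084 (limma adjusted p = 0.93). Ndufb9 read 13.42 and 13.55 in WT PBS and 13.17, 13.40 and 13.31 in WT AngII. The groups were parted by 13.40 and 13.42, so only narrowly, and without WT AngII 2 the difference was −0.13 ± 0.076. On another bright probe set of Ndufb9 the groups overlapped, with WT AngII 4 at 13.38 and WT PBS 5 at 13.36. Ndufb3, a small membrane-arm subunit, read 11.71 and 11.64 in WT PBS and 11.35, 11.54 and 11.44 in WT AngII (−0.23 ± 0.11, and −0.19 ± 0.10 without WT AngII 2). Ndufa5 read 12.83 and 12.96 in WT PBS and 12.28, 12.83 and 12.73 in WT AngII, so its difference of −0.29 ± 0.14 became −0.12 ± 0.087 without WT AngII 2. Its other probe set, with a mean of 12.53, gave −0.077 ± 0.11 in WT. The 2 members above 0 were Ndufa4l2 (0.32 ± 0.23, and 0.10 ± 0.19 without WT AngII 2) and the membrane-arm subunit Ndufb5 (0.002 ± 0.089). In 8 members the WT AngII arrays all lay below the WT PBS arrays and in 0 above, against 11.3% and 8.4% of all probe sets. By role, medians in WT were −0.12 for the accessory matrix arm, −0.11 for the A, C and S and −0.13 for the B subunits of the membrane arm, and without WT AngII 2 the accessory matrix arm stood at 0.009, the A, C and S subunits at −0.059 and the B subunits at −0.043.

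**Figure D4:**
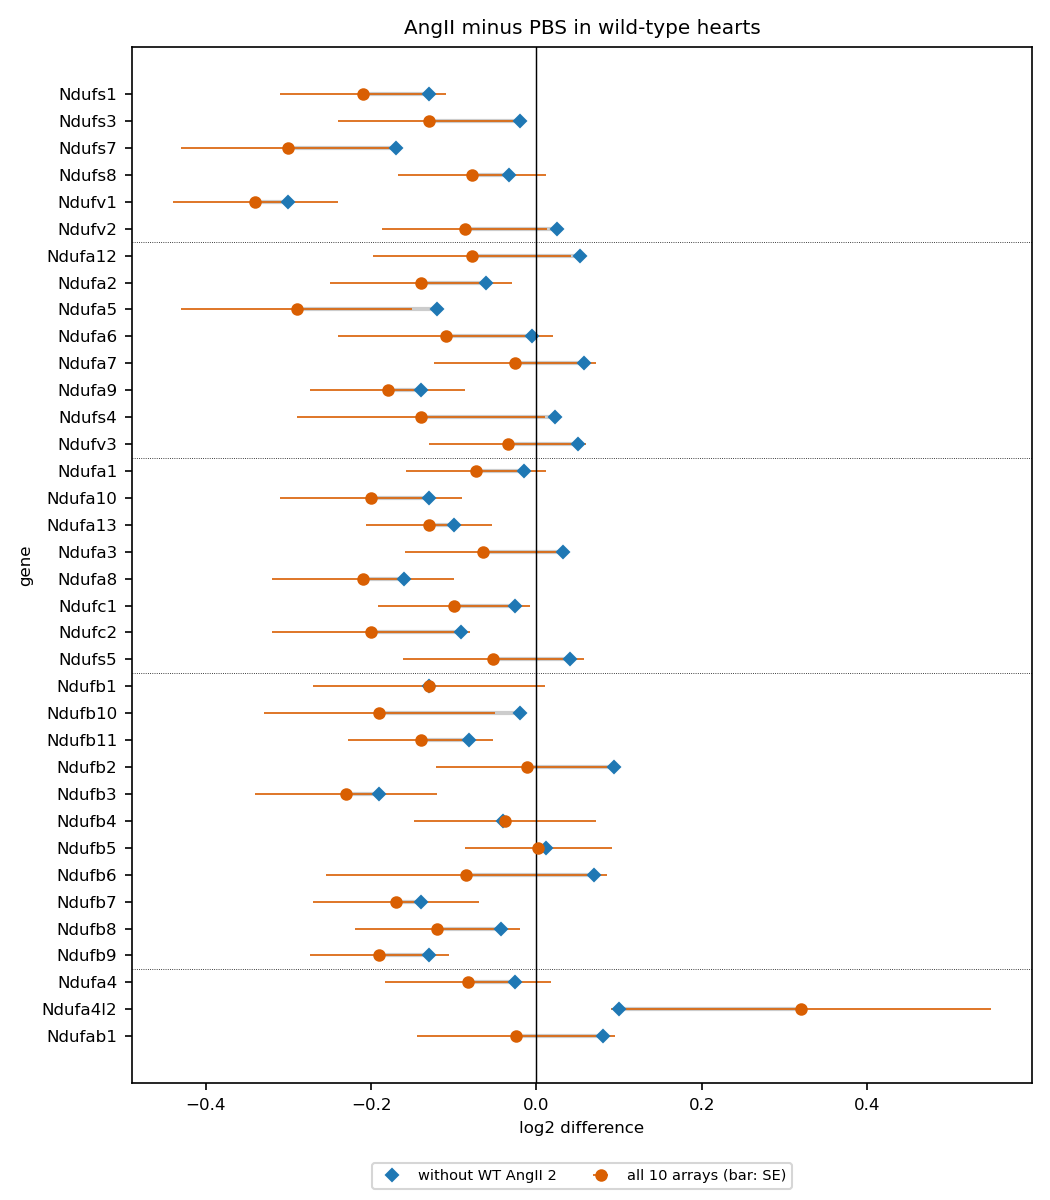
AngII minus PBS in WT hearts for each of the 36 members (rows by role, x axis log2 difference), with circles and SE bars for the fit on all 10 arrays and diamonds for the fit without WT AngII 2. All but 2 circles lie below 0 (median −0.13), and the median of the diamonds is nearer to 0 (−0.030), with Ndufv1 lowest in both.

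In KO hearts 24 of the 36 members lay lower under AngII, with a median of −0.026, against 46.2% of all probe sets and a median of 0.016. No member was called by limma (0% of all probe sets), and 2 had an unadjusted p under 0.05, both lower (2.4% of all probe sets, and 2.17% higher). Besides Ndufv1 this was Ndufa4, now known as a subunit of complex IV. Ndufa4 read 13.27, 13.37 and 13.05 in KO PBS and 13.00 and 12.90 in KO AngII, a difference of −0.28 ± 0.10 (limma adjusted p = 0.892). It read 13.27 and 13.30 in WT PBS and 13.09, 13.24 and 13.28 in WT AngII. The 3 arrays of the low spike-in batch were its 3 lowest, KO PBS 4 minus the mean of KO PBS 2 and 3 was −0.27, and with the batch as a block the difference was −0.098 ± 0.12. Ndufa6, a matrix-arm subunit that binds the acyl carrier protein, read 12.30, 12.48 and 12.19 in KO PBS and 12.11 and 12.05 in KO AngII (−0.25 ± 0.13, limma adjusted p = 0.892, and −0.11 ± 0.16 with the block). The largest positive values were Ndufa4l2 (0.21 ± 0.23), Ndufb6 (0.13 ± 0.17) and Ndufc2 (0.11 ± 0.12). With the block Ndufb6 turned to −0.16 ± 0.19 and Ndufc2 to −0.025 ± 0.16. In 9 members the KO AngII arrays all lay below KO PBS (10.8% of all probe sets) and in 1, Ndufb5, above (13.7%). With the batch as a block the median was −0.064, and all 36 intervals without the block were within a doubling or a halving.

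Whether AngII acted differently in the genotypes was asked with the interaction, the KO effect minus the WT effect. It was above 0 for 30 of 36 members with a median of 0.089 (52.3% of all probe sets, median 0.011), and 19 of 36 with a median of 0.010 without WT AngII 2 (51% of all probe sets). No member was called by limma (0% of all probe sets), and 0 had an unadjusted p under 0.05 in either direction (1.15% and 0.482% of all probe sets). The values of smallest p were 0.30 ± 0.17 for Ndufc2, 0.25 ± 0.15 for Ndufb3 and 0.21 ± 0.14 for Ndufb8, and in the other direction −0.19 ± 0.15 for Ndufa4. With the block these were 0.17 ± 0.20, 0.19 ± 0.18, 0.098 ± 0.16 and −0.014 ± 0.15, and Ndufb8 was at 0.13 ± 0.12 without WT AngII 2. Ndufc2 is a membrane-arm subunit that read 12.99 and 13.05 in WT PBS, 12.60, 13.03 and 12.82 in WT AngII, 12.90, 12.78 and 13.04 in KO PBS and 12.95 and 13.07 in KO AngII. Its arrays overlapped between treatments in both genotypes. For Ndufv1 the interaction was 0.066 ± 0.14 (95% interval −0.24 to 0.38). The intervals were within 1.41-fold for 23 members and within a doubling or a halving for all 36.

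Under PBS the genotypes were compared without AngII. Of the 36 members 23 were higher in KO with a median of 0.023 (53.5% of all probe sets, median 0.014). No member was called by limma, against 0.0133% of all probe sets, and 0 had an unadjusted p under 0.05 (2.72% of all probe sets higher and 3.58% lower). Ndufa7, a matrix-arm subunit, read 12.71 and 12.78 in WT PBS and 12.83, 12.89 and 12.92 in KO PBS, without overlap (0.13 ± 0.098, limma adjusted p = 0.86). Ndufs5, on the intermembrane side of the membrane arm, read 12.03 and 12.09 in WT PBS and 12.13, 12.15 and 12.27 in KO PBS (0.12 ± 0.11, and 0.078 ± 0.12 with the block). These were the 2 members of 36 whose KO PBS arrays all lay above WT PBS (13.2% of all probe sets), and 0 lay below (10.8%). On the other probe sets of Ndufa7 the groups overlapped. One of them read 12.31 and 12.44 in WT PBS and 12.21, 12.38 and 12.47 in KO PBS. The Ndufs5 probe set shared with the copy Ndufs5-ps also overlapped, with 12.07 and 12.28 in WT PBS and 12.13, 12.16 and 12.20 in KO PBS. Ndufb6 of the membrane arm was the lowest in KO, with 12.44 and 12.59 in WT PBS and 12.18, 12.22 and 12.63 in KO PBS (−0.17 ± 0.17). Its high value was on the low-batch array KO PBS 4, and with the block the difference was −0.31 ± 0.16. The other Ndufb6 probe set, with a mean of 12.13, went the other way, with 0.051 ± 0.099 under PBS and 0.13 ± 0.099 under AngII. Of the 36 intervals 33 were within 1.41-fold.

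Under AngII, KO hearts had higher values than WT in 32 of 36 members, with a median of 0.11 (57.5% of all probe sets, median 0.034). No member was called by limma, against 0.0111% of all probe sets. An unadjusted p under 0.05 was reached by Ndufb3 and Ndufb8, higher in KO, and Ndufa4, lower (3.22% and 3.28% of all probe sets). Without WT AngII 2 the count above 0 was 23, the median 0.044 (54.4% of all probe sets above 0), and 2 members had an unadjusted p under 0.05 (5.53% of all probe sets). With the batch as a block the median was 0.075, and with both changes together 0.008, with 18 of 36 above 0. With array weights 5 members were called, as were 6.46% of all probe sets. The 3′ minus 5′ signal of the Actb control probe sets is a sign of RNA quality. It was 0.92, 1.33 and 1.01 in WT AngII and 0.83 and 0.74 in KO AngII, without overlap. On KO PBS 4, also of the low batch, it was 0.75, against 1.38 and 1.28 on KO PBS 2 and 3. The 3 low-batch arrays thus had the lowest values, and the part of this signal in the genotype differences was not tested.

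Ndufb3 read 11.35, 11.54 and 11.44 in WT AngII and 11.66 and 11.79 in KO AngII, without overlap (0.28 ± 0.11, limma adjusted p = 0.734). The difference was 0.23 ± 0.10 without WT AngII 2 and 0.18 ± 0.18 with the block. Ndufb8, an accessory subunit of the membrane arm, read 12.89, 13.21 and 13.05 in WT AngII and 13.30 and 13.29 in KO AngII (0.24 ± 0.10, limma adjusted p = 0.734, and 0.16 ± 0.089 without WT AngII 2). All 3 low-batch arrays of Ndufb8 lay above all 7 high-batch arrays, and with the block the difference was 0.077 ± 0.16. Its other probe set, with a mean of 6.37, gave −0.32 ± 0.20. Ndufs4 had the largest difference, 0.30 ± 0.15, with 10.59, 11.05 and 11.10 in WT AngII and 11.16 and 11.26 in KO AngII. It was 0.14 ± 0.11 without WT AngII 2. Ndufa4 read 13.09, 13.24 and 13.28 in WT AngII and 13.00 and 12.90 in KO AngII (−0.25 ± 0.10, limma adjusted p = 0.734), and with the block the difference was 0.015 ± 0.15.

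By role, the KO values under AngII lay above WT for all 6 core subunits (median 0.078), 7 of 8 accessory subunits of the matrix arm (0.11), all 8 A, C and S subunits (0.15) and 10 of 11 B subunits (0.14). With that array, WT AngII 2, left out these counts were 2 of 6 (−0.013), 4 of 8 (−0.005), 7 of 8 (0.054) and 8 of 11 (0.068). The core and matrix-arm medians thus changed sign without it, and those of the membrane arm did not.

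In 9 members KO AngII lay above WT AngII on every array (16% of all probe sets), and in 1, Ndufa4, below (11.2%). Between the spike-in batches, Ndufb5 and Ndufb8 were higher on all 3 low arrays than on all 7 high ones (5.06% of all probe sets) and Ndufa4 lower (4.36%). KO PBS 4, the link between the batches, lay above the mean of KO PBS 2 and 3 for 20 of 36 members (52.9% of all probe sets). Ndufb6 and Ndufab1 had the largest such steps, 0.43 and 0.29. The other Ndufb6 probe set did not show this step, with 12.10 and 12.20 on KO PBS 2 and 3 and 12.21 on KO PBS 4. Ndufab1, the mitochondrial acyl carrier protein that also serves lipoic acid synthesis, read 13.10 and 13.05 in WT PBS, 12.84, 13.10 and 13.21 in WT AngII, 13.04, 13.07 and 13.35 in KO PBS and 13.20 and 13.27 in KO AngII. Its differences were −0.025 ± 0.12 for AngII in WT, 0.077 ± 0.12 in KO and 0.18 ± 0.12 between the genotypes under AngII. Leaving out WT AngII 2 turned the WT value to 0.081 ± 0.10 and gave 0.075 ± 0.10 between the genotypes under AngII. With the block the KO value was −0.11 ± 0.14 and the genotype difference under AngII −0.11 ± 0.18, so none of these directions was settled. A dim probe set of this gene, with a mean of 5.64, gave −0.59 ± 0.13 for AngII in WT and for KO against WT under PBS.

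**Figure D5:**
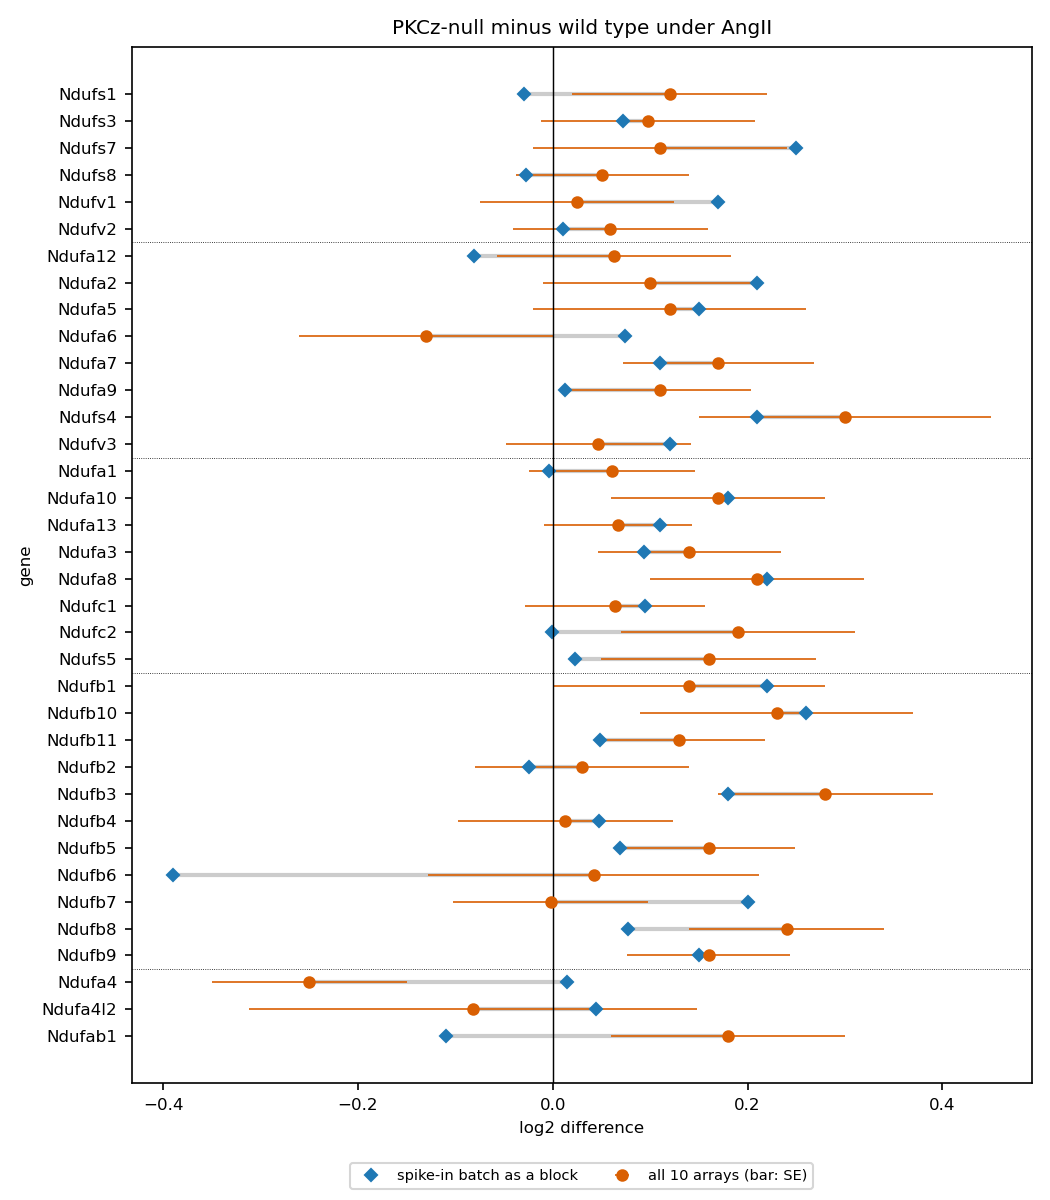
KO minus WT under AngII for each of the 36 members (rows by role, x axis log2 difference), with circles and SE bars for the fit on all 10 arrays and diamonds with the spike-in batch as a block. Of the circles 32 lie above 0 (median 0.11); the diamonds have a median of 0.075 and spread more widely, and that of Ndufb6 lies at −0.39.

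Averaged over the treatments, 29 of 36 members were higher in KO with a median of 0.055 (57.6% of all probe sets, median 0.031), and 21 with a median of 0.022 without WT AngII 2 (56.6% of all probe sets). No member was called by limma, against 0.0444% of all probe sets, and 0 had an unadjusted p under 0.05 (5.86% higher and 6.54% lower). The values of smallest p were −0.16 ± 0.073 for Ndufa4 (0.022 ± 0.10 with the block), 0.15 ± 0.069 for Ndufa7, 0.23 ± 0.11 for Ndufs4 (0.15 ± 0.078 without WT AngII 2) and 0.15 ± 0.075 for Ndufb3 (0.083 ± 0.12 with the block). No member separated all 5 KO from all 5 WT arrays (0.822% of all probe sets did so higher in KO and 0.613% lower). All 36 intervals of this average lay within 1.41-fold.

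The members of largest spread and those whose probe sets differed most were looked at separately. Ndufa4l2 read 8.66 and 8.86 in WT PBS, 9.52, 8.61 and 9.11 in WT AngII, 8.67, 8.99 and 8.70 in KO PBS and 8.95 and 9.05 in KO AngII. The groups overlapped within each genotype, and the AngII difference averaged over genotypes was 0.27 ± 0.16 (limma adjusted p = 0.586), and 0.16 ± 0.13 without WT AngII 2. Ndufb6 read 12.12, 12.52 and 12.64 in WT AngII and 12.37 and 12.57 in KO AngII, so both of these groups overlapped with each other and with the PBS groups. Ndufs4 read 11.13 and 10.97 in WT PBS and 11.13, 11.24 and 11.28 in KO PBS. Under PBS its chosen probe set differed between KO and WT by 0.16 ± 0.15 and another, with a mean of 9.27, by −0.22 ± 0.19, so its genotype difference had no settled direction over its probe sets. For AngII in WT the same 2 probe sets gave −0.14 ± 0.15 and −0.40 ± 0.19, and without WT AngII 2 the chosen one gave 0.023 ± 0.11. Ndufb4 on its dim probe set differed by −0.092 ± 0.11 between KO and WT under PBS, while its 2 bright shared probe sets gave −0.13 ± 0.11 and −0.13 ± 0.091 for AngII in WT and −0.020 ± 0.11 and −0.020 ± 0.091 in KO.

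The proteins that build complex I and the factors that drive its genes were set beside the members. Of 19 assembly factors measured, 18 lay lower under AngII in WT (48.4% of all probe sets) and 17 in KO (46.2%), each with a median of −0.16. Without WT AngII 2, 16 lay lower in WT (47.9% of all probe sets), with a median of −0.14. With the spike-in batch as a block the KO median was −0.097. None was called by limma in either comparison (0% of all probe sets), and at an unadjusted p under 0.05 stood 2 lower and 1 higher in WT (3.52% and 1.71% of all probe sets) and 1 lower in KO (2.4%). Ndufaf4 differed by −0.54 ± 0.17 in WT (limma adjusted p = 0.93), and by −0.061 ± 0.17 in KO. It read 10.35 and 10.30 in WT PBS, 9.91 and 10.01 on WT AngII 3 and 4, and 9.45 on WT AngII 2. Under PBS it was lower in KO than in WT by −0.32 ± 0.17. The interaction of 0.48 ± 0.25 was not called. Ndufaf6 differed by −0.36 ± 0.15 in each genotype. Of 14 regulators of mitochondrial genes 13 lay lower under AngII in WT (median −0.25) and 10 in KO (median −0.10). The shares of all probe sets were 48.4% and 46.2%. The mean level of the 14 was 0.145 in WT PBS and −0.085 in WT AngII, and −0.065 without WT AngII 2. Tfam, the packaging and transcription factor of mitochondrial DNA, differed by −0.38 ± 0.14 in WT and −0.26 ± 0.14 in KO. Under AngII the coactivator gene Ppargc1b was higher in KO by 0.52 ± 0.14 (limma adjusted p = 0.734) and Esrra by 0.35 ± 0.15, and with the block 0 of the 14 had an unadjusted p under 0.05 in that comparison. Of the 37 genes of complexes II to V, 35 lay lower under AngII in WT (median −0.092) and 20 in KO (−0.002), against 48.4% and 46.2% of all probe sets. Their mean level was 0.015 in WT PBS and −0.079 in WT AngII, and −0.04 without WT AngII 2. Under AngII 33 were higher in KO than in WT (57.5% of all probe sets), with a median of 0.11. This median was 0.058 without WT AngII 2 and 0.055 with the block. With limma 0 of the 37 were called in these comparisons (0%, 0% and 0.0111% of all probe sets), and an unadjusted p under 0.05 was reached by 2 in WT and 2 in KO, all lower (3.52% and 2.4% of all probe sets). Between the genotypes under AngII it was reached by 10, all higher in KO (3.22% of all probe sets), by 5 without WT AngII 2 and by 0 with the block.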

How the data were processed

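Gene expression in whole mouse hearts was read on 1-colour Affymetrix arrays, hybridised with biotinylated cRNA made from 6 µg of total RNA per the labels' protocols. The deposited table holds log2 values, 1 per array for each of 45101 probe sets, which the authors computed with RMA per the submitters' processing notes. Which version of RMA they ran is not stated in the sources used here. RMA corrects background, equalises the arrays' distributions and summarises probes, which compresses differences of dim probe sets and removes shifts common to a whole array. Arrays have no read depth, and it is their small number that sets how precise a value is.

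Without 64 control probe sets, 45037 were tested. By GEO's platform annotation 34945 of them have 1 symbol and 932 several, while 9160 are unnamed here. For 34741 the symbol was updated by Entrez identifier from RefSeq's genes (assembly GRCm38.p6). The fit used limma 3.58.1 in R 4.3.3, with 4 group means over 10 arrays, eBayes with trend, two-sided tests and 6 residual degrees of freedom. Adjusted p is the Benjamini-Hochberg value over the 45037 probe sets of each of 7 comparisons, and called means an adjusted p under 0.05. The scripts were tested on simulated data.

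The members and lists were chosen with earlier results of these data known. Named with values were members called in a comparison, the 3 of smallest unadjusted p in each direction, the core subunits, Ndufa4, Ndufa4l2 and Ndufab1, the 3 of largest SD and the 3 whose probe sets differed most. Other named members were chosen after their values were seen. Alternatives were equal array medians, repeated quantile normalisation, leaving out dim probe sets, array weights, a robust eBayes and one without trend, the replicate number as a block, the spike-in batch as a block, a fit on the compared arrays alone, averaging all probe sets of each gene, and leaving out 1 array at a time. The batch block was also combined with leaving out WT AngII 2. The comparison of AngII with PBS averaged over genotypes was added after the data were seen.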

Additional observations from a re-analysis of the deposited data

How the results depend on the processing

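Over all alternatives, medians over the members moved by less than the spread in 137 refits and by more in 7, and the count of called members moved in 1. The differences of named members kept direction and side of the threshold in 805, reversed in 33 and passed the threshold in 4; where a value moved, the cause was not tested unless a sentence says so. With array weights 5 members were called for KO against WT under AngII, Ndufa4 (−0.32, limma adjusted p = 0.0181), Ndufa6 (−0.28, 0.0464), Ndufa8 (0.29, 0.0378), Ndufb3 (0.27, 0.0384) and Ndufb8 (0.23, 0.0432), where 6.46% of all probe sets were called and WT AngII 4 had a weight of 7.2 and WT AngII 2 of 0.22. Leaving out 1 array gave medians over the members of −0.17 to −0.030 for AngII in WT and 0.010 to 0.12 for the interaction. It gave −0.047 to 0.049 for Ndufb5 in WT (−0.045 without WT PBS 5 and −0.047 without WT AngII 4), −0.34 to 0.11 for the interaction of Ndufa4l2 and −0.32 to 0.14 for Ndufa4l2 under AngII. For Ndufab1 averaged over genotypes it gave −0.013 to 0.079 (−0.013 without WT AngII 4 and −0.001 without KO PBS 2). With the spike-in batch as a block, reversed values were −0.025 for Ndufc2 in KO, 0.015 for Ndufa4, 0.044 for Ndufa4l2 and 0.074 for Ndufa6 under AngII, 0.022 for Ndufa4 and 0.076 for Ndufa6 averaged over treatments, and −0.070 for Ndufab1 averaged over genotypes. With that block and without WT AngII 2 the medians were −0.030 in WT and 0.008 under AngII, and reversed values were −0.025 for Ndufc2 in KO, 0.19 for the interaction of Ndufa4l2, 0.26 for Ndufa4l2 and −0.005 for Ndufb8 under AngII, 0.025 for Ndufa6 averaged over treatments and −0.017 for Ndufab1 averaged over genotypes. Averaging all probe sets of each gene gave −0.13 for Ndufb5 in WT, −0.037 for the interaction of Ndufb8, 0.015 for Ndufc2 under PBS, −0.038 for Ndufb8 under AngII, 0.013 for Ndufb6 averaged over treatments, and −0.25 for Ndufab1 and −0.024 for Ndufb5 averaged over genotypes. Equal array medians gave −0.036 for Ndufb5 in WT and −0.015 for Ndufab1 averaged over genotypes, and a repeated quantile normalisation 0.027 for Ndufa4l2 under AngII.

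Arrays with the same title number did not deviate together, with correlations over all probe sets of −0.36 to 0.10 in 10 pairs. A pairing by number was thus not seen, but groups of 2 or 3 arrays are too small to exclude it. With the replicate number as a block the medians were −0.024 in WT, −0.066 for the interaction and 0.12 under PBS, reversed values were −0.056 for Ndufb5 in WT, 0.006 for the interaction of Ndufa4l2, 0.038 for Ndufb4 under PBS and −0.022 for Ndufab1 averaged over genotypes, and 0 members were called in any comparison. The 2 to 3 arrays of a group limit the precision, and for dim probe sets such as that of Ndufb4 the signal over background limits it further.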
